A study of Mus musculus with 7 samples.

Results

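Acetylcholine receptor and neuromuscular junction genes were examined in C2C12 myotubes with and without electrical pulse stimulation (EPS), a current that makes cultured myotubes contract. The genes are 10 named by symbol: the receptor subunit genes Chrna1, Chrnb1, Chrnd, Chrng and Chrne, and the genes Agrn, Lrp4, Musk, Dok7 and Rapsn, which act together to gather the receptor under the nerve ending. All 10 were found among the 26607 genes listed for each library. C2C12 is an established line of mouse myoblasts, which join into multinucleate myotubes in low serum, and every culture of this study was of that line. The control group had no stimulation (n = 3, replicates 1, 3 and 4), and the EPS group was stimulated for 24 h from 3 days after differentiation and rested for 1 h before RNA was taken (n = 4, replicates 1 to 4). The cultures are muscle cells alone, so the genes were measured without a motor nerve. Nothing in the labels says that libraries of a group came from separate experiments, so the P-values measure the spread between these libraries, which may be technical.

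The muscle acetylcholine receptor is a ring of alpha, beta, delta and gamma subunits in embryonic or denervated muscle, and epsilon takes the place of gamma in the adult, innervated junction. Agrin, released by the nerve and also made by muscle, binds LRP4 at the muscle surface, which activates the kinase MuSK. DOK7 binds MuSK from inside the cell, and rapsyn anchors the receptors in clusters. In innervated fibres, electrical activity is known to lower receptor transcription outside the junction, while nuclei beneath the nerve keep it high. Poly(A) RNA-seq was used here, and the deposited unit is CPM, the reads of a gene scaled to the library's total over all listed genes.

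The promoters of the gamma and epsilon genes are shown beside that of Chrna1, which belongs to both receptor forms, because the results turn on the epsilon gene and its ratio to gamma. Each is the stretch upstream of the RefSeq transcription start (GRCm38.p6), 5′ to 3′ on the gene's own strand, without bases that GENCODE M21 places in an exon of the gene. Capitals mark E-boxes, CANNTG, the letters read by myogenic factors such as MyoD and myogenin, and the N-box, CCGGAA or its reverse complement TTCCGG, the letters known from genes transcribed beneath the nerve. The windows lie at chr11:70619217-70619444 (minus strand, Chrne), chr1:87205561-87205809 (plus strand, Chrng) and chr2:73580339-73580588 (minus strand, Chrna1). The GENCODE model of Chrng begins upstream of the RefSeq start, at 87204657, so its window lies inside the GENCODE gene span, between exons.
Chrne: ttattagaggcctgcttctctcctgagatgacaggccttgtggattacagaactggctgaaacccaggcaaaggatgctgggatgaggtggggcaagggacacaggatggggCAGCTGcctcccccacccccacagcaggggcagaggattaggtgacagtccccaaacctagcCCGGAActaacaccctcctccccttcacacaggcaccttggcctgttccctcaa
Chrng: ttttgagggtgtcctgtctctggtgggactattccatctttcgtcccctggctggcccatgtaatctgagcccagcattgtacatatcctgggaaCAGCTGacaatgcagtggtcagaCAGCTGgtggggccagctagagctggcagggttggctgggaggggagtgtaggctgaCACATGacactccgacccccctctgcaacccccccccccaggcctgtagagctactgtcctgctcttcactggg
Chrna1: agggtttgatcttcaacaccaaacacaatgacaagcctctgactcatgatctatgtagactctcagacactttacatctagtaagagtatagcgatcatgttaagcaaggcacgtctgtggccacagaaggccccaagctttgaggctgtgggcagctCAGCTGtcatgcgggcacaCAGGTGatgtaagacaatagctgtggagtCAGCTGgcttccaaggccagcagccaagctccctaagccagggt

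Over the full 250 bases upstream, windows were found for 7 of the 10 genes, 9 windows in all, and none was used for Chrnd, Rapsn and Lrp4. The Chrne window held 1 E-box, starting 138 bases before the start site, and 1 N-box, starting 76 bases before it. The Chrng window held 3 E-boxes, starting 155, 132 and 75 bases before the start, and the Chrna1 window held 3, at 92, 73 and 44 bases. E-boxes were present in 7 of the 9 windows, against 66.2% of 32851 RefSeq promoter windows of the same length. The E-box spelled CAGCTG was present in 4 of the 9 windows, against 13% of all windows. The N-box letters, searched on both strands, were in 1 of the 9 windows, that of Chrne, against 12% of all windows. These matches describe letters only.

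The libraries held 16616917 to 22120641 reads in the control group and 18830229 to 21892568 reads in the EPS group, recovered from CPM values that were all whole multiples of 1 read (tolerance 0.02 reads). A count of 3 reads corresponded to 0.136 to 0.181 CPM. Control replicate 4 stood apart, with 14014 genes above 0 against 16144 to 16984 in the other 6 libraries, and with 359 genes of 1 to 5 reads against 2670 to 3181. The difference of each of the 10 genes without it is given below. As a description, 16 myotube genes such as Ckm, Acta1 and Ttn summed to 20378 to 26136 CPM in control and 16229 to 24787 CPM in EPS. This sum had no comparator and does not give the share of myotubes in a culture.

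Of the 10 genes, 1 passed the thresholds used here, an unadjusted two-sided P under 0.01 by limma on log2(CPM + 1) and more than 2-fold. That gene was Chrne, which was lower in EPS. Among the 19144 genes tested, 269 passed these thresholds, or 1.41%, and 84, or 0.439%, passed them in the lower direction. At a Benjamini-Hochberg adjusted p under 0.05 over all tested genes, limma called 0 of the 10, against 27 genes in all, or 0.141%. At an unadjusted P under 0.05 limma gave 1 of the 10, against 11.6% of all tested genes. On recovered reads, edgeR and DESeq2 each gave 1 of the 10 at an adjusted p under 0.05, again Chrne. The share was 1.51% of all 19144 genes with edgeR, and 3.39% of the 14676 genes to which DESeq2 gave an adjusted p. At an unadjusted P under 0.05 edgeR and DESeq2 each gave 3 of the 10, Chrne, Rapsn and Dok7. The share was 11.6% with edgeR, and 10.6% of the 19130 genes with a P from DESeq2. The EPS libraries all lay below the control libraries for 1 of the 10 genes, Chrne, while 2.85% of all tested genes showed this. They all lay above the control libraries for 0 of the 10, while 7.76% of all tested genes did. The fold change was below 0 on the log2 scale for 6 genes and above 0 for 4, with a median of -0.21 over the 10 and 0.041 over all tested genes. Among the 12256 genes averaging at least 1 CPM, as all 10 do, the median was 0.10. A limma fit on these alone called 310 genes, and 1 of the 10.

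**Figure D1:**
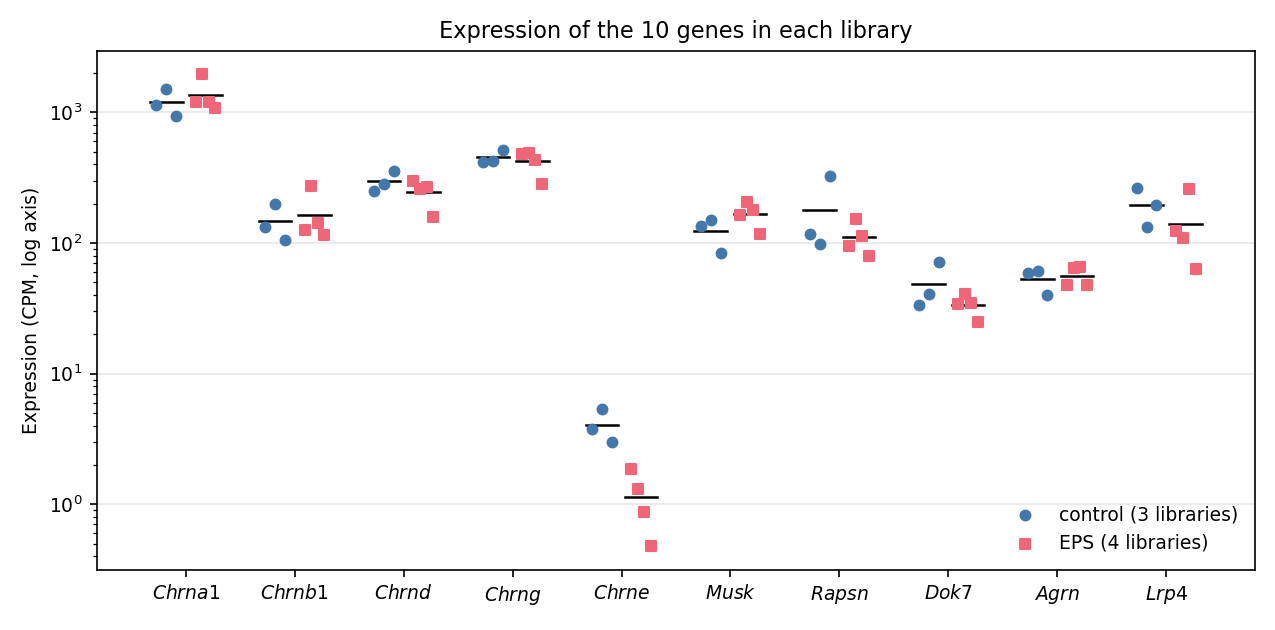
CPM of each of the 10 genes in every library, on a log axis, with control libraries (n = 3) and EPS libraries (n = 4) as points and the group mean as a bar. The groups separate for Chrne, 2.98 to 5.36 CPM in control and 0.478 to 1.86 CPM in EPS, and overlap for the other 9 genes.

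Chrne encodes the epsilon subunit of the adult receptor and lies at chr11:70614883-70619216 on the minus strand (GRCm38, ENSMUSG00000014609.16). It measured 3.79, 5.36 and 2.98 CPM in control replicates 1, 3 and 4, from 65, 89 and 66 reads. In EPS replicates 1 to 4 it measured 1.86, 1.32, 0.868 and 0.478 CPM, from 40, 27, 19 and 9 reads. The highest EPS library was thus below the lowest control library. The mean was 4.04 ± 1.21 CPM (SD, n = 3) in control and 1.13 ± 0.596 CPM (SD, n = 4) in EPS, which is 3.58-fold lower. On the log2(CPM + 1) scale, which understates the change of low genes, the difference was -1.26 (SE 0.28, 95% interval -1.88 to -0.63; limma P = 0.00144, adjusted p = 0.120; exact permutation P = 0.0286). The exact value is the smallest that 3 against 4 libraries allow. The adjusted p ranged from 0.00192 with DESeq2 to 0.523 with a replicate block over the alternatives tried, and the difference from -1.94 to -1.08. Without control replicate 4 it was -1.42. The gene's span overlaps that of 4930544D05Rik on the other strand, at a mean of 0.113 CPM, with no shared exon bases. In bulk RNA, fewer cells expressing a gene and less RNA per cell cannot be told apart.

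The gamma subunit gene Chrng (chr1:87204657-87212694, plus strand) was far more abundant and did not pass the test. Control replicates 1, 3 and 4 measured 414, 426 and 512 CPM, and EPS replicates 1 to 4 measured 480.0, 487, 434 and 281 CPM. The groups overlapped, with EPS replicate 4 the lowest of the 7. The difference was -0.13 on the log2(CPM + 1) scale (SE 0.24, 95% interval -0.66 to 0.41; limma adjusted p = 0.869), 0.055 without EPS replicate 4 and -0.032 without control replicate 4.

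The delta subunit gene Chrnd (chr1:87190607-87200070, plus strand) lies on the same strand as Chrng with 4586 bases between them. It measured 250.4, 283 and 357 CPM in control and 296, 260.2, 270 and 158 CPM in EPS. The ranges overlapped, and the difference was -0.30 (SE 0.24, 95% interval -0.85 to 0.26; limma adjusted p = 0.697). As with Chrng, control replicate 4 was the highest library and EPS replicate 4 the lowest, and the difference was -0.15 without the former and -0.095 without the latter.

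Chrna1, which encodes the alpha subunit that binds acetylcholine, was the most abundant of the 10 (chr2:73563215-73580338, minus strand). It measured 1137, 1503 and 937 CPM in control and 1198, 1952, 1203 and 1077 CPM in EPS. EPS replicate 2 was the highest library and control replicate 4 the lowest, and the groups overlapped. The log2 difference was 0.17 (SE 0.33, 95% interval -0.57 to 0.91; limma adjusted p = 0.869), and its sign changed when replicate numbers were used as a block and when EPS replicate 2 was left out, both giving -0.015. Without control replicate 4 it was 0.013.

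The beta subunit gene Chrnb1 (chr11:69784036-69795943, minus strand) measured 132, 200.1 and 106 CPM in control. In EPS it measured 125, 273, 143 and 116 CPM. Its highest and lowest libraries were those of Chrna1. The log2 difference was 0.13 (SE 0.32, 95% interval -0.61 to 0.86; limma adjusted p = 0.889), and its sign changed with the block and without EPS replicate 2, both -0.15, and without control replicate 4, -0.079. The intervals of the 4 subunits other than epsilon all include 0 but also include changes to either side, so a lack of change is not shown for any of them.

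**Figure D2:**
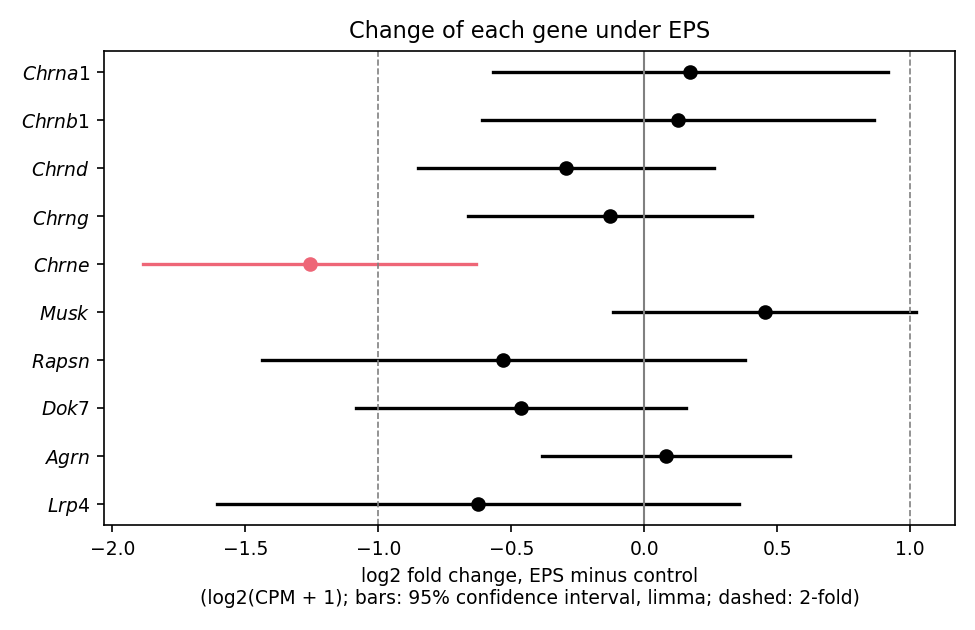
Difference between EPS and control on the log2(CPM + 1) scale for the 10 genes, with 95% intervals from limma as bars. The interval of Chrne, -1.88 to -0.63, lies below 0, and those of the other 9 genes include 0.

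The epsilon gene was also compared with its partners inside each library. Chrne alone already separated the groups, with a difference of -1.26. Chrnd, Chrng, Chrnb1 and Chrna1 differed by -0.30, -0.13, 0.13 and 0.17. Both ratios below therefore largely restate the difference of Chrne, and their P-values are not separate evidence. The log2 ratio of Chrng to Chrne, each with 1 CPM added, was 6.51 ± 0.47 (SD, n = 3) in control and 7.64 ± 0.20 (SD, n = 4) in EPS. The groups did not overlap and differed by 1.13 (two-sided exact permutation P = 0.0286). Because Chrne is near 1 CPM, the size depends on the amount added, and the difference was 1.39 with 0.5 CPM and 1.72 with 0.1 CPM (exact permutation P = 0.0286 for both). Against the mean of Chrna1, Chrnb1 and Chrnd, Chrne stood at -6.21 ± 0.14 in control and -7.47 ± 0.36 in EPS, a difference of -1.26 without overlap (exact permutation P = 0.0286). With 0.5 or 0.1 CPM added it was -1.52 or -1.85, and the exact permutation P rose to 0.0571. Leaving out any 1 library leaves a design that cannot reach 0.05.

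Per kilobase of transcript, gamma reads exceeded epsilon reads 62.6-, 45.5- and 98.3-fold in control replicates 1, 3 and 4. In EPS replicates 1 to 4 the excess was 148-, 212-, 286- and 336-fold. Without division by length it was 109-, 79.5- and 172-fold in control replicates 1, 3 and 4, and 258- to 587-fold in EPS. The size of the excess thus depends on the transcript lengths used, 2780 bases for Chrng and 1591 for Chrne. With these lengths, epsilon made up 1.57, 2.15 and 1.01% of the gamma and epsilon transcripts together in control, and 0.673, 0.470, 0.348 and 0.297% in EPS. Gamma was the prevailing form in every library. The ratio of alpha to beta per kilobase was 4.09 ± 0.350 in control and 4.24 ± 0.541 in EPS, and that of alpha to delta was 2.77 ± 0.922 and 3.81 ± 1.14. The ratio of gamma to delta was 1.61 ± 0.119 in control (1.51 to 1.74) and 1.81 ± 0.133 in EPS (1.70 to 1.97), with overlapping ranges.

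**Figure D3:**
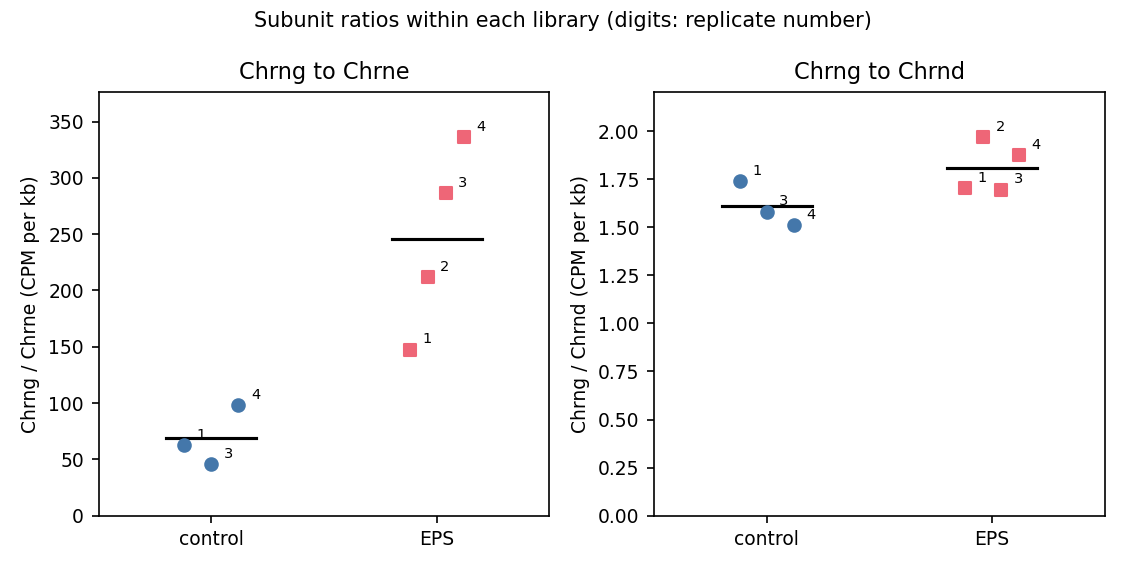
Ratios between receptor subunit genes in each library, in CPM per kilobase of transcript on linear axes, with control (n = 3) and EPS (n = 4) libraries as points and the group mean as a bar. The Chrng to Chrne ratio runs from 45.5 to 98.3 in control and from 148 to 336 in EPS, while the Chrng to Chrnd ratio overlaps between the groups, 1.51 to 1.74 and 1.70 to 1.97.

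Among the genes of receptor clustering, none passed the test. Musk, the kinase, had the highest estimate of the 5 (chr4:58285960-58374303, plus strand). It measured 134, 150 and 83.8 CPM in control and 164, 204, 179 and 118 CPM in EPS. Only EPS replicate 4 fell inside the control range. The log2 difference was 0.45 (SE 0.25, 95% interval -0.12 to 1.02; limma adjusted p = 0.532), and 0.20 without control replicate 4.

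Lrp4, the agrin receptor (chr2:91457511-91513779, plus strand), measured 262, 132 and 195 CPM in control and 123, 109, 260.5 and 62.8 CPM in EPS. EPS replicate 3 stood with the highest control library while the other EPS libraries were below all of them. The log2 difference was -0.63 (SE 0.43, 95% interval -1.61 to 0.36; limma adjusted p = 0.631). It was -0.99 without EPS replicate 3, -0.31 without EPS replicate 4, -0.39 without control replicate 1 and -0.60 without control replicate 4. Agrn, which encodes agrin (chr4:156165290-156197488, minus strand), measured 59.2, 60.9 and 39.7 CPM in control and 47.3, 64.0, 65.2 and 47.7 CPM in EPS. Its difference of 0.08 (SE 0.21, 95% interval -0.39 to 0.55; limma adjusted p = 0.887) changed sign under quantile normalization, median-of-ratios scaling, edgeR and DESeq2, and was -0.11 without control replicate 4.

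Rapsn, the gene of the receptor anchor rapsyn (chr2:91035620-91045729, plus strand), measured 117, 97.3 and 324 CPM in control, where replicate 4 stood far above the others. In EPS it measured 95.2, 153, 113 and 79.3 CPM. The log2 difference of -0.53 (SE 0.40, 95% interval -1.44 to 0.38; limma adjusted p = 0.661) was 0.0014 without control replicate 4. A stretch of 484 exon bases of Rapsn is shared with Gm13778 on the opposite strand, which has no row in the files, and the use of strand in counting is not stated. Dok7 (chr5:35056766-35087839, plus strand) measured 33.6, 40.7 and 71.7 CPM in control and 34.2, 40.9, 34.9 and 24.9 CPM in EPS. Its difference was -0.46 (SE 0.27, 95% interval -1.08 to 0.16; limma adjusted p = 0.568), and -0.15 without control replicate 4. For both genes the high control mean rested on that library.

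Levels were ranked per kilobase of the longest principal transcript, so that genes could be compared with each other. In control the order was Chrna1 (272 ± 65.4 CPM per kb), Chrng (162 ± 19.3), Rapsn (112 ± 78.3), Chrnd (102 ± 18.7), Chrnb1 (67.8 ± 22.6), Musk (36.6 ± 10.3), Lrp4 (24.7 ± 8.20), Dok7 (17.5 ± 7.29), Agrn (7.73 ± 1.71) and Chrne (2.54 ± 0.758; SD, n = 3). Neighbours in this order did not overlap for Chrna1 and Chrng, Chrnb1 and Musk, Dok7 and Agrn, and Agrn and Chrne, and the other neighbours overlapped. In EPS the order was kept except for Rapsn (68.6 ± 19.6; SD, n = 4), which came after Chrnd (84.1 ± 20.8) and Chrnb1 (76.1 ± 34.0). Neighbours there did not overlap for Chrna1 and Chrng, Musk and Lrp4, and Agrn and Chrne. Chrne was last in both groups, at 0.711 ± 0.374 CPM per kb in EPS.

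The 10 genes did not follow one pattern over the libraries. Control replicate 4 was the highest of the 7 for Chrnd, Chrng, Rapsn and Dok7 and the lowest for Chrna1, Chrnb1, Musk and Agrn. EPS replicate 4 was the lowest for 6 genes, namely Chrnd, Chrng, Chrne, Rapsn, Dok7 and Lrp4. EPS replicate 2 was the highest for Chrna1, Chrnb1 and Musk. Because these extremes fall on the same libraries, the values of the genes are not independent of each other.

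The genes most like Chrne over the 7 libraries, by Pearson correlation of log2(CPM + 1) among 12255 other genes of at least 1 CPM on average, were Mylk4 (r = 0.994), Egr3 (0.982), Cnr1 (0.981), Cxcl14 (0.979) and Sfswap (0.978). Mylk4 averaged 117 CPM in control and 44.3 CPM in EPS. For Chrng they were Jak3 (0.954), Kifc3 (0.954), Zfp809 (0.945), Chrnd (0.943) and Sil1 (0.941). Chrne and Chrng themselves correlated at 0.451. These values describe 7 points that share libraries and, in part, group.

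Other genes of the junction were taken in 7 lists holding 75 genes, of which 67 had reads. Limma called 0 higher and 1 lower, against 0.439% of all tested genes called lower. At an unadjusted P under 0.05 limma gave 4 of the 67, against 11.6%, and at an adjusted p under 0.05 it gave 0, against 0.141%. At that adjusted p edgeR gave 3 (Colq, Col13a1 and Myod1), against 1.51%. DESeq2 gave 4 (these and Myog), against 3.39% of the 14676 genes to which it gave an adjusted p. With the thresholds of P and fold, edgeR called 4 of the 67 lower (Ache, Colq, Col13a1 and Myog), against 1.57% of all genes, and DESeq2 called 3 (Colq, Col13a1 and Myog), against 1.4%. The EPS libraries all lay below the controls for 4 of the 67, against 2.85%, and above for 1, against 7.76%. The median log2 difference was -0.042. The gene called was Colq, the collagen tail that fixes acetylcholinesterase in the synaptic matrix. Colq measured 14.6, 10.7 and 26.8 CPM in control and 4.42, 9.11, 6.85 and 4.30 CPM in EPS. The groups did not overlap, with a log2(CPM + 1) difference of -1.31 (SE 0.36; limma P = 0.00599, adjusted p = 0.207; exact permutation P = 0.0286). Of 16 alternatives 9 called it, edgeR (-1.61, adjusted p = 0.00917) and DESeq2 (-1.62, adjusted p = 0.00123) among them. The call was lost at P under 0.001, at -0.97 without control replicate 4, at -1.38 without control replicate 1, at -1.20, -1.37 and -1.19 without EPS replicates 1, 3 and 4, and at -1.50 with the replicate numbers as a block.

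Within the list of acetylcholinesterase and synaptic matrix genes, 9 of 10 were tested and the median was -0.079. Ache, the enzyme itself, was looked at after its values were seen, and measured 4.90, 3.13 and 9.72 CPM in control and 1.30, 3.90, 4.11 and 0.743 CPM in EPS. The groups overlapped, and the difference was -1.01 (limma adjusted p = 0.459), or -0.64 without control replicate 4, its highest library. It passed both thresholds with edgeR, at -1.35, and under no other of the 16 alternatives. Col13a1, a transmembrane collagen of the junction, chosen in the same way, measured 11.4, 11.3 and 12.4 CPM in control and 6.75, 7.02, 5.02 and 3.88 CPM in EPS. These groups did not overlap, but the difference of -0.96 stayed under 2-fold on the log2(CPM + 1) scale (limma P = 0.00485, adjusted p = 0.191; exact permutation P = 0.0286). It passed both thresholds under 8 of 16 alternatives, among them edgeR (-1.15, adjusted p = 0.0329), DESeq2 (-1.16, adjusted p = 0.00193) and quantile normalization (-1.09).

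Of the 12 genes linked to activity-dependent repression of receptor genes, limma called 0, and the median was -0.13. Myog, which encodes the myogenic factor myogenin, measured 473, 565 and 1794 CPM in control and 281, 605, 406 and 278 CPM in EPS. The high control mean rested on replicate 4. The difference was -1.07 (limma adjusted p = 0.437), or -0.47 without that library (limma adjusted p = 0.664). Of 16 alternatives, edgeR (-1.39, adjusted p = 0.0625) and DESeq2 (-1.40, adjusted p = 0.0303) called it. Myod1 and Camk2b, chosen after their values were seen, had EPS libraries that all lay below the controls. Myod1 measured 136, 99.8 and 160.1 CPM in control and 59.2, 93.9, 88.8 and 48.0 CPM in EPS, with a difference of -0.88 (adjusted p = 0.236 with limma, 0.0492 with edgeR and 0.0250 with DESeq2), under 2-fold with each. Camk2b, which encodes a calcium-dependent kinase subunit, measured 15.8, 11.4 and 13.7 CPM in control and 7.82, 9.79, 10.3 and 4.62 CPM in EPS, with a difference of -0.72 (limma adjusted p = 0.390).

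In the remaining lists neither limma, edgeR nor DESeq2 called a gene. All 17 genes of signalling downstream of MuSK were tested, with a median of 0.037, and the largest difference was 0.30 for Rac1, a small GTPase of the actin cytoskeleton, which was 0.11 without control replicate 4 and 0.54 without control replicate 3. The 13 postsynaptic scaffold genes had a median of -0.13, with Ank3, which encodes ankyrin-G, at -0.59, or from -0.90 without control replicate 3 to -0.35 without control replicate 1. For neuregulin signalling and the ETS factors that read the N-box, 6 of 7 genes were tested with a median of -0.025, and Nrg1, the gene of neuregulin 1, was at 0.38, or -0.012 without control replicate 4. The 5 glycosylation genes linked to congenital myasthenia had a median of 0.15, with Alg14 at 0.45, or 0.14 without control replicate 4 and 0.77 without control replicate 3. Of 11 neuronal receptor subunit genes, 9 had at most 3 reads in every library. Chrna2 was the 1 gene of the 7 lists with all EPS libraries above the controls, at 0 reads in each control library and 1 to 2 reads in each EPS library, and its difference of 0.086 was the largest of that list.

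**Figure D4:**
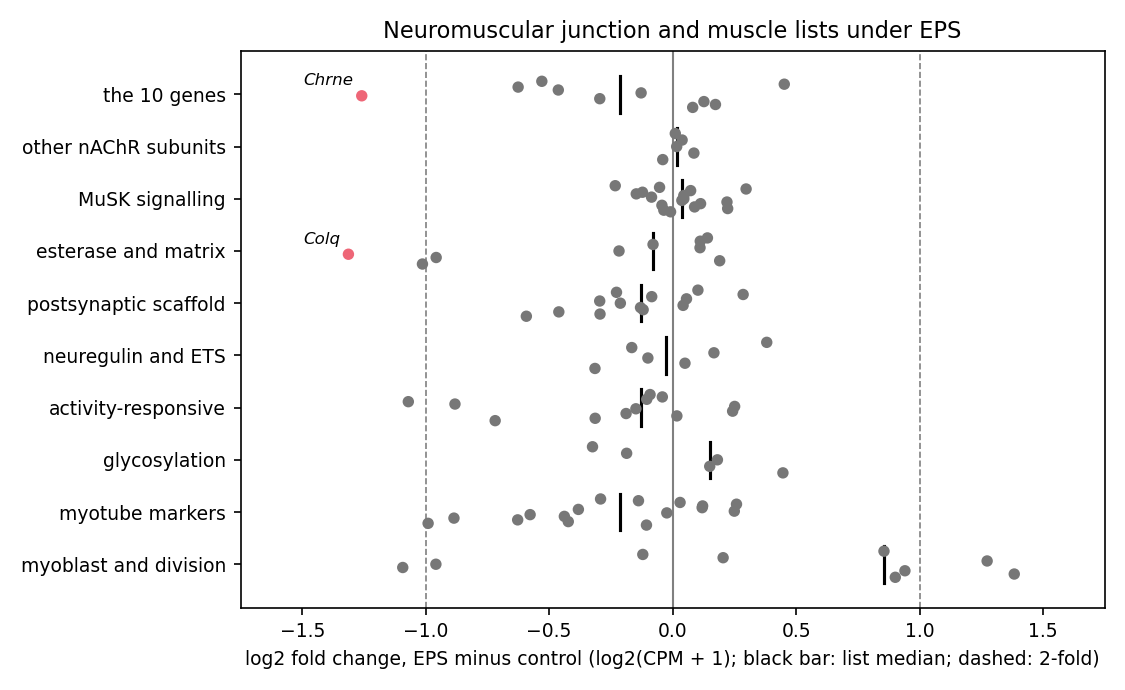
Differences between EPS and control on the log2(CPM + 1) scale for the tested genes among the 10 genes, the 7 other junction lists and 2 marker lists, 1 point per gene, with the list median as a bar. Chrne (-1.26) and Colq (-1.31) lie farthest below 0, and the median of the myoblast and dividing-cell markers, 0.86, lies farthest from 0.

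Marker genes of other cells were read beside these results. Of 9 neuron markers, 7, Chat and Slc18a3 among them, had at most 3 reads in every library. Stmn2 gave most of that list's sum, which was 58.0 to 74.6 CPM in control and 91.0 to 183 CPM in EPS, and its own difference was 0.72 (limma adjusted p = 0.305). The 5 Schwann cell markers summed to 1.40 to 1.99 CPM in control and 1.64 to 2.78 CPM in EPS, with Sox10 at most 3 reads in every library and the largest difference, 0.54, for Mbp, a myelin gene. The 9 markers of myoblasts and dividing cells did not move together, and the split given here was made after their values were seen. The 5 genes of dividing cells, Mki67, Top2a, Ccnb1, Ccna2 and Cdk1, summed to 241 to 326 CPM in control and 366 to 1069 CPM in EPS, without overlap. For each of the 5 on its own the groups overlapped. The largest difference was 1.38 for Ccnb1, the gene of the mitotic cyclin B1. The 4 other markers, Pax7, Myf5, Id1 and Id3, summed to 55.0 to 91.5 CPM in control and 36.6 to 60.2 CPM in EPS, with differences of -0.12, 0.20, -1.09 and -0.96. Id1 measured 17.9, 17.6 and 45.7 CPM in control replicates 1, 3 and 4, so its high control mean rested on replicate 4. In EPS it measured 10.1, 14.0, 7.49 and 13.1 CPM. Limma called 0 of the 9, against 1.41% of all tested genes, and gave 7 at an unadjusted P under 0.05, against 11.6%. EdgeR and DESeq2 each called 4 of the 9, Mki67 and Ccnb1 higher and Id1 and Id3 lower, against 3.29% and 3.06% of all genes called in either direction. Of the 16 myotube genes, 11 were lower and 5 higher by sign, with a median of -0.22, and limma called 0, against 1.41% of all tested genes. At an unadjusted P under 0.05 limma gave 1 of the 16, against 11.6%, edgeR gave 4 (Ckm, Actn2, Myh1 and Cav3), against 11.6%, and DESeq2 gave 3 (Ckm, Actn2 and Myh1), against 10.6%. The largest difference was -0.99 for Actn2, the gene of the Z-disc protein alpha-actinin 2, which 7 of 16 alternatives called, edgeR (-1.14, adjusted p = 0.0202) and DESeq2 (-1.16, adjusted p = 0.00622) among them. The part of these markers in the differences of Chrne and Colq was not tested.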

How the data were processed

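RNA-seq was measured in 7 libraries of C2C12 cultures, 3 control and 4 EPS, grouped by the treatment label. The authors selected poly(A) RNA, made directional libraries, mapped paired-end reads to GRCm38 with STAR 2.5.4b (per the submitters' processing notes), and deposited CPM per gene. The read counter, annotation and strand setting are not given in the sources used here. CPM were taken as log2(CPM + 1). The 19144 genes above 0 in any of the 7 libraries were fitted with limma 3.58.1 in R 4.3.3, with a mean-variance trend and no covariate, and p-values were adjusted by Benjamini-Hochberg over all of them. A gene was called at an unadjusted P under 0.01 and over 2-fold. Single values were tested by exact two-sided permutation. Count tests (edgeR 4.0.16, DESeq2 1.42.0) were run on reads recovered from the CPM as alternatives, since the deposited unit is CPM. The fit was also repeated with quantile normalization, with a replicate block, with median-of-ratios scaling, with 0.1 or 0.5 CPM added, on genes averaging at least 1 CPM, at P under 0.001, and leaving out each library. The median log2 difference of 12256 genes of at least 1 CPM was 0.10 on the deposited scale and -0.0048 after median-of-ratios scaling, so differences are to be read against that shift.

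Gene models are those of GENCODE M21 on GRCm38, and promoter windows are those of RefSeq. The 10 members, the junction lists and the marker lists were chosen with earlier results of these data known. Named genes were all members, the genes called in each list, and the gene with the largest absolute difference of each list, with 5 most similar genes for Chrne and for Chrng. Other genes of the lists, marker genes included, were named after their values were seen. Depth was 16616917 to 22120641 reads, so 3 reads correspond to 0.136 to 0.181 CPM, and intervals cover the spread between libraries.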

Additional observations from a re-analysis of the deposited data

Results flagged for a closer look

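Within groups of 4 libraries, the highest or lowest value was compared with the others by its gap over the group's range (Dixon's test), for 27 results in the EPS group. Chance alone marks about 1 in 20 for continuous values. In EPS replicate 4, Chrna2 stood at 0.106 CPM, which is 2 reads against 1 in each other EPS library, and with so few reads any single extra read is marked. In EPS replicate 2, Stmn2, which encodes the tubulin-binding protein stathmin 2, stood at 183 CPM against 90.5 to 96.3 CPM in the other EPS libraries.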

How the results depend on the processing

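Over all 19144 genes, 269 were called; the count was 601 with a pseudocount of 0.1, 629 with edgeR, 585 with DESeq2, 161 with a replicate block, 106 at P under 0.001, and 185 to 245 with 1 library left out. Of the calls 68.8% were higher in EPS, against 51.6% under quantile normalization and 52.8% under median-of-ratios scaling. Chrne was the 1 member called under every alternative except P under 0.001, which called 0, and leaving out any 1 library gave 1. The log2 difference of Chrne was -1.42 to -1.08 with 1 library left out. Signs turned for Chrna1 (-0.015 with the replicate block; -0.015 to 0.35 with 1 library left out), Chrnb1 (-0.15 with the block; -0.15 to 0.38), Chrng (-0.21 to 0.055), Rapsn (-0.86 to 0.0014), Nrg1 (-0.012 to 0.73) and Agrn (-0.0079 under quantile normalization, -0.030 under median-of-ratios scaling, -0.025 with edgeR, -0.036 with DESeq2; -0.11 to 0.19). The cause of these was not tested; none of these genes was called.

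The log2 ratio of Chrng to Chrne differed by 1.72 with a pseudocount of 0.1 and 1.39 with 0.5, by 1.10 with the replicate block (exact permutation P = 0.25), and by 0.91 to 1.38 with 1 library left out. The ratio of Chrne to the shared subunits differed by -1.85 with a pseudocount of 0.1 and -1.52 with 0.5 (exact permutation P = 0.0571), by -1.15 with the block (exact permutation P = 0.25), and by -1.43 to -1.15 with 1 library left out. With the block or 1 library fewer, these designs cannot reach 0.05. Deviations of genes from their group mean correlated between same-numbered libraries at 0.245, -0.447 and 0.0679 for replicates 1, 3 and 4 (12256 genes). These values differ in sign, and libraries of different number were not compared, so they cannot decide whether the numbers mark pairs. The block rests on a number only. Of the 10 members Chrne had the fewest reads, 9 to 40 in each EPS library.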
